A study of Mus musculus with 6 samples.

Results

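The genes described here are 37 interferon-stimulated genes of the mouse, chosen by name because they are textbook targets of interferon signalling. Their levels were followed in cultured fetal lung cells. Of the 37, 36 matched an Ensembl identifier in the deposited tables of 31053 genes, and Mx2 was not analysed here. The lung cells came from wild-type C57BL6 fetuses at embryonic day 17. They were freed with liberase, stored frozen in 10% DMSO and plated on a thin coat of diluted Matrigel. The medium, made for haematopoietic stem and progenitor cells, held mTPO, IL6, SCF, FGF, VEGF and Flt3, and the wells were washed on day 3. On days 4, 5 and 6 the floating cells were taken as the suspension fraction. The attached layer of the same days was lifted with accutase and sorted for live cells bearing VE-cadherin, a protein of endothelial junctions, as the adherent fraction. Each fraction gave 1 library on each day, 3 libraries per fraction and 6 in all. All 6 shared strain, age, medium and freezing, and the labels name no added interferon or infection. Sorting and accutase were applied to the adherent fraction alone, so handling and fraction cannot be told apart.

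Interferons are secreted proteins that warn cells of viral nucleic acid. Type I and type III interferons bind receptors whose kinases phosphorylate STAT2. It enters a complex with IRF9 that binds the interferon-stimulated response element (ISRE), a repeated GAAA motif in target promoters. Type II interferon acts mainly at another element, the gamma activated site (GAS). The induced genes encode RNA sensors, enzymes that degrade or modify viral RNA, membrane proteins that hinder viral entry or release, and GTPases of cell-autonomous immunity. Macrophages and other blood cells, like endothelial cells, hold some of these genes at a resting level without added interferon.

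The ISRE core was searched on both strands as GAAA, any 2 bases and GAAA again, and the GAS as TTCNNNGAA, which reads the same on both strands. The windows were RefSeq promoters (GRCm38.p6), 250 bases before to 50 after each transcription start, 300 bases in all. A promoter was found for 29 members. An ISRE core lay in at least 1 promoter of 16 of them (55.17%), against 785 of 19618 genes of the table with a promoter (4.001%). A GAS lay in 8 of 29 members (27.59%), against 1821 genes (9.282%). A total of 4 members held both and 9 held neither. Among members higher in suspension by the test below, 6 of 9 with a promoter held an ISRE core. Of those lower in suspension 3 of 6 did, and of those not called 7 of 14. The matches below were chosen after the values were seen. They are those of the called members, with Isg15 and 1 of the Ifit3 matches added as uncalled genes that the day courses below describe. Each runs 5′ to 3′ on the strand of its gene, with the ISRE matches in capitals and a GAAA repeat appearing as TTTC where it lies on the other strand.

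Ifitm2, chr7:140955992-140956013, minus strand: caacagGAAAAGGAAAttgcta
Ifitm3, chr7:141010727-141010748, minus strand: attcagGAAAAGGAAActtctg
Ifitm3, chr7:141010710-141010731, minus strand: ttctgaGAAACCGAAActgccg
Rsad2, chr12:26456557-26456578, minus strand: tccaacTTTCATTTTCagaaaa
Ifit3, chr19:34583401-34583422, plus strand: agtctgTTTCAGTTTCtacttt
Isg15, chr4:156200869-156200902, minus strand: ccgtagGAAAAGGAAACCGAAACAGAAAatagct
Stat2, chr10:128270270-128270291, plus strand: ccctggTTTCAGTTTCctttcc
Ifih1, chr2:62646208-62646229, minus strand: agaatcGAAACAGAAAccgatc
Oas1a, chr5:120907524-120907551, minus strand: tctcggGAAATGGAAACTGAAAatctac
Oas3, chr5:120777719-120777740, minus strand: ggaggaGAAAACGAAAgtgaag
Bst2, chr8:71537581-71537608, minus strand: ttccagGAAAATGAAACTGAAAggctgc
Igtp, chr11:58199516-58199537, plus strand: ggaactGAAACTGAAAgctgtt

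The Isg15 window held 3 overlapping matches, and those of Oas1a and Bst2 held 2. The promoter of Ifitm1, whose reads exceeded those of every other member in suspension, held neither motif in this window. The RefSeq start of Ifitm1 used here lies inside the span that GENCODE gives the gene, so the bases before that span were not searched. The end of a promoter was found in a GENCODE transcript of the same gene and strand for 20 of the 29 members. A match is a run of letters and not a measured binding site.

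The libraries held between 36451255 and 57784974 reads on the sense strand of a gene, counted over whole libraries and not per cell. Levels are given in CPM, read counts divided by the TMM-scaled library size in its usual unit, in which 3 counts correspond to 0.0594 to 0.0756 CPM. Summed over 10 endothelial markers, the adherent libraries of days 4, 5 and 6 held 869, 1722 and 660 CPM and the suspension libraries 13.3 to 20.4 CPM. All 10 were highest on day 5 in the adherent fraction. Summed over 8 macrophage markers, suspension held 17220 to 18990 CPM and adherent 2674, 3446 and 6971 CPM in day order. The sum of 8 neutrophil markers was 25430, 32680 and 77620 CPM in suspension and 225, 748 and 978 CPM in adherent. For 6 fibroblast markers the adherent sum was 1468, 2286 and 2217 CPM in day order and the suspension sum 17.3 to 64.6 CPM. Over 6 epithelial markers, adherent held 1338, 295 and 929 CPM on days 4, 5 and 6. Suspension held 250, 34.5 and 12.9 CPM over the same markers. The 7 T and NK cell markers summed to 5.90 to 15.4 CPM in suspension, of which Nkg7 gave most, and 0.0231 to 0.428 CPM in adherent. Both that could be tested, Nkg7 and Cd3d, were higher in suspension, while Cd3e, Ncr1 and Gzma had no count in any library. The 6 markers of plasmacytoid dendritic cells summed to 215 to 242 CPM in suspension and 391 to 529 CPM in adherent, nearly all from Tcf4, which was lower in suspension, and Bst2, a member. Siglech, the defining marker among them, had at most 2 counts in a library. Reads counted as matching no gene on its sense strand made up 16.7% to 16.8% of suspension reads and 23.4% to 24.2% of adherent reads. Reads on the opposite strand of a gene can be among them. In such whole libraries, fewer cells of a type and less RNA per cell cannot be told apart. The part that cell composition plays in the results below was not tested.

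The members did not move as 1 block between the fractions. With edgeR's quasi-likelihood test, adjusted by Benjamini-Hochberg over 14912 genes, 13 of the 35 members tested were higher in suspension, 6 were lower and 16 were not called. Over all genes 56.8% were called, 27.1% higher and 29.7% lower in suspension, so the members' share of 54.29% lies near the background. Their median log2 ratio of suspension to adherent was 0.36, against -0.002473 over all genes tested. The 3 suspension values lay wholly above the 3 adherent ones for 15 members (33.4% of all genes) and wholly below for 6 (34.4% of all genes). Together these are 60% of members against 67.8% of all genes. By role, all 3 RNA sensors and 4 of 5 OAS genes had higher values in suspension on each day, and all 3 IFIT genes had lower ones. The share of all genes on 1 side on every day is not reported here. In these roles the test called 2 RNA sensors, 3 OAS genes and 1 IFIT gene. P-values measure the spread between libraries of successive days, because a fraction has 1 library per day.

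**Figure D1:**
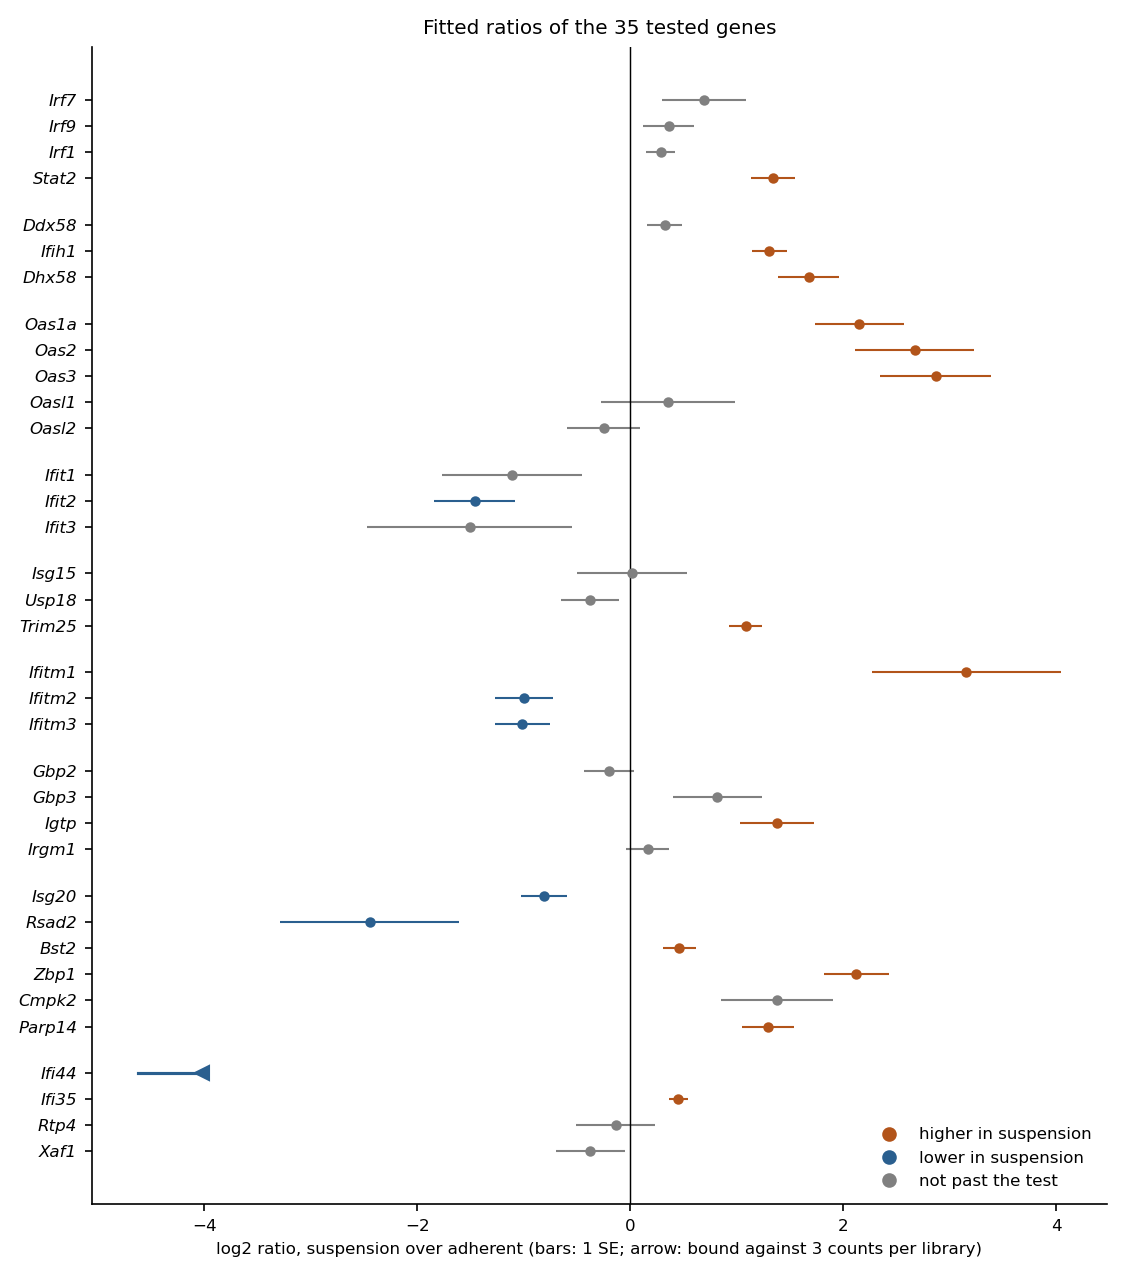
Log2 ratio of suspension to adherent for each of the 35 tested members, grouped by role, with bars of 1 standard error and an arrow for Ifi44, which is drawn at its bound against 3 counts per library. With an adjusted p under 0.05, 13 members lie right of 0 (orange) and 6 left of it (blue).

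Summed over the 36 members, reads made up 0.285% ± 0.0239 of gene counts in suspension and 0.260% ± 0.0819 in adherent (SD, n = 3 each). The IFITM genes supplied 82.4% to 88.6% of these reads in each library. Without them the members' share was 0.0425% ± 0.00281 in suspension and 0.0345% ± 0.0050 in adherent.

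Ifitm1, Ifitm2 and Ifitm3 lie within a cluster on chromosome 7 (mm10) and encode small membrane proteins that hinder the entry of enveloped viruses. They split between the fractions. Ifitm1 (ENSMUSG00000025491, chr7:140967221-140969825) reached 1752, 1832 and 1435 CPM in suspension on days 4, 5 and 6. In the adherent fraction it stood at 20.0, 240.0 and 303 CPM. No adherent value came near a suspension value, and the gap was widest on day 4, at 87.6 times, against 7.63 times on day 5 and 4.74 times on day 6. Its mean was 1673 ± 210 CPM in suspension and 188 ± 149 CPM in adherent (SD, n = 3), a log2 ratio of 3.16 ± 0.89 (SE), with an adjusted p of 0.0224 by edgeR. The neutrophil, macrophage and fibroblast sums of the adherent libraries were lowest on day 4 as well, while the epithelial sum was highest then. The part of these cell types in the Ifitm1 values was not tested.

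Ifitm2 (ENSMUSG00000060591, chr7:140954837-140955987) went the other way, with 372, 365 and 501 CPM in suspension against 547, 833 and 1088 CPM in adherent. Ifitm3 (ENSMUSG00000025492, chr7:141009586-141010770) had 584, 534 and 490 CPM in suspension against 682, 1206 and 1355 CPM in adherent. For both genes every adherent library was above every suspension library. The means of Ifitm2 were 413 ± 76.7 CPM in suspension and 823 ± 271 CPM in adherent (SD, n = 3), a log2 ratio of -0.995 ± 0.27 with an edgeR adjusted p of 0.0198. Ifitm3 had means of 536 ± 47.5 and 1081 ± 354 CPM, a log2 ratio of -1.01 ± 0.26 with an edgeR adjusted p of 0.0157. Of the reads on these 3 genes, Ifitm1 took 59.2% to 67.1% in suspension and 1.60% to 11.03% in adherent. All 3 calls rest on few libraries. Without day 5 of the adherent fraction the adjusted p was 0.0618 for Ifitm1, 0.0579 for Ifitm2 and 0.0559 for Ifitm3. Without day 5 of suspension it was 0.0568 for Ifitm1 and 0.0553 for Ifitm2. Ifitm2 and Ifitm3 are close copies, and reads that fit several places are left out of such tables, so the division of reads among them is uncertain. Over whole libraries, reads that fit several places made up 15.5%, 14.8% and 13.9% of suspension reads on days 4, 5 and 6. In adherent they made up 22.6%, 20.2% and 18.7%. The part of these left-out reads in the ratios and day courses was not tested.

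**Figure D2:**
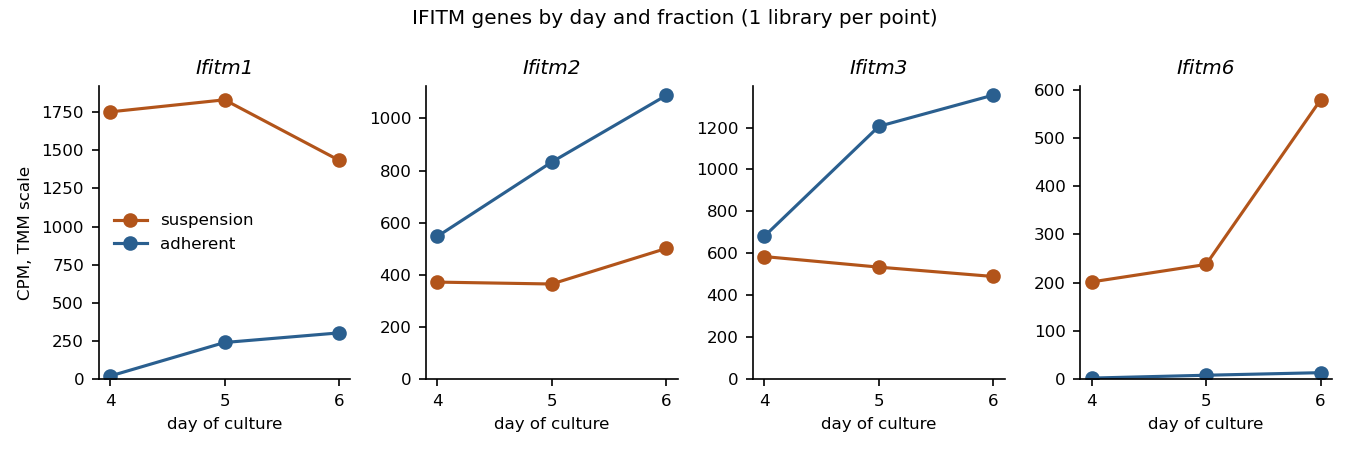
Levels of Ifitm1, Ifitm2, Ifitm3 and their relative Ifitm6 in CPM (y axis, linear from 0) on days 4, 5 and 6 (x axis), with 1 point per library and lines joining a fraction. Ifitm1 and Ifitm6 lie far higher in suspension, with Ifitm1 at 20.0 CPM in adherent on day 4, while Ifitm2 and Ifitm3 lie higher in adherent.

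Within the adherent fraction all 3 IFITM genes were higher on each later day. The fitted slopes per day were 1.94 ± 0.56 for Ifitm1, 0.50 ± 0.09 for Ifitm2 and 0.50 ± 0.11 for Ifitm3 on the log2 scale. By edgeR the adjusted p was 0.0829 for Ifitm1, 0.0309 for Ifitm2 and 0.0441 for Ifitm3. The last 2 were the only members called for the adherent slope, where 7.75% of all genes rose. The suspension slopes were -0.14, 0.22 and -0.13. The difference in slope was -2.09 ± 0.70 for Ifitm1 (edgeR adjusted p of 0.203) and -0.62 ± 0.15 for Ifitm3 (0.115), so a difference between the fractions was not called. Without day 4 the adherent slope of Ifitm1 was 0.34, that of Ifitm2 0.39 and that of Ifitm3 0.17, with adjusted p of 0.406, 0.347 and 0.622 by edgeR. For Ifitm1 the adherent slope was 3.58 (edgeR adjusted p of 0.00489) without adherent day 6 and 1.96 (0.00119) without adherent day 5. Its slope difference was -0.48 (0.341) without adherent day 4, -3.73 (0.00613) without adherent day 6 and -2.10 (0.00528) without adherent day 5. Leaving out any library except day 5 of adherent ended the calls for Ifitm2 and Ifitm3. The neutrophil and macrophage sums of the adherent libraries were also higher on each later day.

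Of the 4 transcription factors of the pathway, Stat2 alone passed the test. STAT2 is a carrier of the type I signal. Stat2 had 18.4, 24.1 and 20.0 CPM in suspension and 6.53, 7.71 and 10.4 CPM in adherent, with a log2 ratio of 1.34 ± 0.21 and an edgeR adjusted p of 0.00242. Every suspension value was above every adherent value. Irf9, the DNA-binding partner of STAT2, had 12.7, 14.4 and 16.8 CPM in suspension and 7.75, 12.3 and 14.1 CPM in adherent. Both fractions were higher on each later day and they overlapped, with a log2 ratio of 0.36 ± 0.24 and an edgeR adjusted p of 0.240. Irf1, an activator that also drives class I genes, had 13.7, 17.3 and 16.4 CPM against 14.2, 12.5 and 12.1 CPM (edgeR adjusted p of 0.117). Irf7 amplifies type I interferon production. It had 3.05 and 3.03 CPM on days 4 and 5 of suspension and 6.91 CPM on day 6, against 2.12, 3.15 and 2.77 CPM in adherent (edgeR adjusted p of 0.172).

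The RNA sensors were graded. Ifih1 encodes MDA5, which senses long viral RNA, and had 14.0, 15.8 and 17.03 CPM in suspension against 5.61, 5.89 and 7.41 CPM in adherent. Its log2 ratio was 1.31 ± 0.16 with an edgeR adjusted p of 0.00119, with no overlap. Dhx58 encodes LGP2, a regulator of the other sensors, and had 8.5, 10.3 and 13.2 CPM against 2.28, 3.45 and 4.31 CPM. It was higher on each later day in both fractions, and its log2 ratio was 1.67 ± 0.29 (edgeR adjusted p of 0.00373). Its day course depends on the strand counted, as 21.4% of its counts over both strands were antisense. The adherent slope of Dhx58 was 0.45 with sense reads and 0.20 with reads on either strand (edgeR adjusted p of 0.0693 and 0.261). Ddx58 encodes RIG-I, which senses the ends of viral RNA. It had 13.1, 16.8 and 18.3 CPM against 12.8, 14.3 and 11.5 CPM, nearly level on day 4, and was not called (log2 ratio 0.32 ± 0.17, edgeR adjusted p of 0.138).

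The OAS genes encode sensors of viral RNA that make oligoadenylates, a signal for the decay of RNA. Although none reached 5 CPM on average in either fraction, 3 of the 5 were higher in suspension. Oas1a had 5.47, 2.29 and 4.55 CPM in suspension and 0.992, 0.630 and 1.14 CPM in adherent (log2 ratio 2.15 ± 0.42, edgeR adjusted p of 0.00556). Oas2 had 2.28, 2.05 and 2.83 CPM against 0.138, 0.302 and 0.676 CPM (log2 ratio 2.67 ± 0.56, edgeR adjusted p of 0.00750). Oas3 had 1.48, 1.95 and 4.22 CPM against 0.369, 0.227 and 0.443 CPM (log2 ratio 2.87 ± 0.52, edgeR adjusted p of 0.00442). No value of these 3 genes overlapped between fractions. The ratio of mean levels was 4.46 for Oas1a, 6.41 for Oas2 and 7.37 for Oas3. The adherent libraries of days 4, 5 and 6 held only 6, 12 and 29 counts of Oas2 and 16, 9 and 19 of Oas3. Leaving out day 6 moved 2 of them by over 1.5 times, to a log2 ratio of 3.43 for Oas2 without the adherent library and 2.27 for Oas3 without the suspension library. The OAS-like genes did not follow. Oasl1 stood at 0.151 to 0.614 CPM in the 6 libraries and Oasl2 at 1.07 to 2.26 CPM, with log2 ratios of 0.36 ± 0.63 and -0.25 ± 0.35 (edgeR adjusted p of 0.655 and 0.565). Oas1a shares sequence with Oas1g, so its counts are uncertain to that extent.

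The genes that ran higher in the adherent fraction included Rsad2, Ifit2, Ifi44 and Isg20. Rsad2 (ENSMUSG00000020641, chr12:26442746-26456452) encodes viperin, an enzyme that makes a chain-terminating nucleotide against viral RNA synthesis. It had 0.557, 1.43 and 3.35 CPM in suspension and 3.41, 18.8 and 7.08 CPM in adherent. The lowest adherent value, on day 4, was just above the highest suspension value, on day 6, and day 5 of adherent stood far above the rest. Its mean was 5.50 times higher in adherent, with a log2 ratio of -2.45 ± 0.84 and an edgeR adjusted p of 0.0441. This call was lost without suspension day 4 (0.0862), suspension day 5 (0.122), adherent day 6 (0.0545) or adherent day 5 (0.152, with a log2 ratio of -1.56). Without suspension day 6 the log2 ratio was -3.30.

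Ifi44 had no count in any suspension library and 10, 76 and 50 counts in adherent on days 4, 5 and 6. Taken against 3 counts per library in suspension, it was at least 16.3-fold higher in adherent (edgeR adjusted p of 0.0117). Ifit2, which binds viral RNA and restrains translation, had 1.04, 2.14 and 2.16 CPM in suspension and 5.19, 3.32 and 6.22 CPM in adherent. Its log2 ratio was -1.46 ± 0.38 with an edgeR adjusted p of 0.0169 and a mean 2.76 times higher in adherent. Its relatives Ifit1 and Ifit3 were lower in suspension on each day too but were not called. Ifit1 had 0.387, 0.453 and 1.45 CPM against 0.738, 2.24 and 2.003 CPM, with an edgeR adjusted p of 0.193 (0.0364 without suspension day 6). Ifit3 had 0.0969, 0.596 and 1.31 CPM against 0.554, 3.60 and 1.61 CPM (edgeR adjusted p of 0.220). Ifit3b, a near copy of Ifit3, shares reads with it, so the count of Ifit3 is uncertain. Isg20, an RNA exonuclease, had 4.72, 4.79 and 7.46 CPM in suspension and 9.69, 10.1 and 9.99 CPM in adherent. The adherent libraries differed little among themselves, and the log2 ratio was -0.81 ± 0.22 with an edgeR adjusted p of 0.0183. The Isg20 call was lost without suspension day 5 (0.0546) or adherent day 5 (0.0577).

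**Figure D3:**
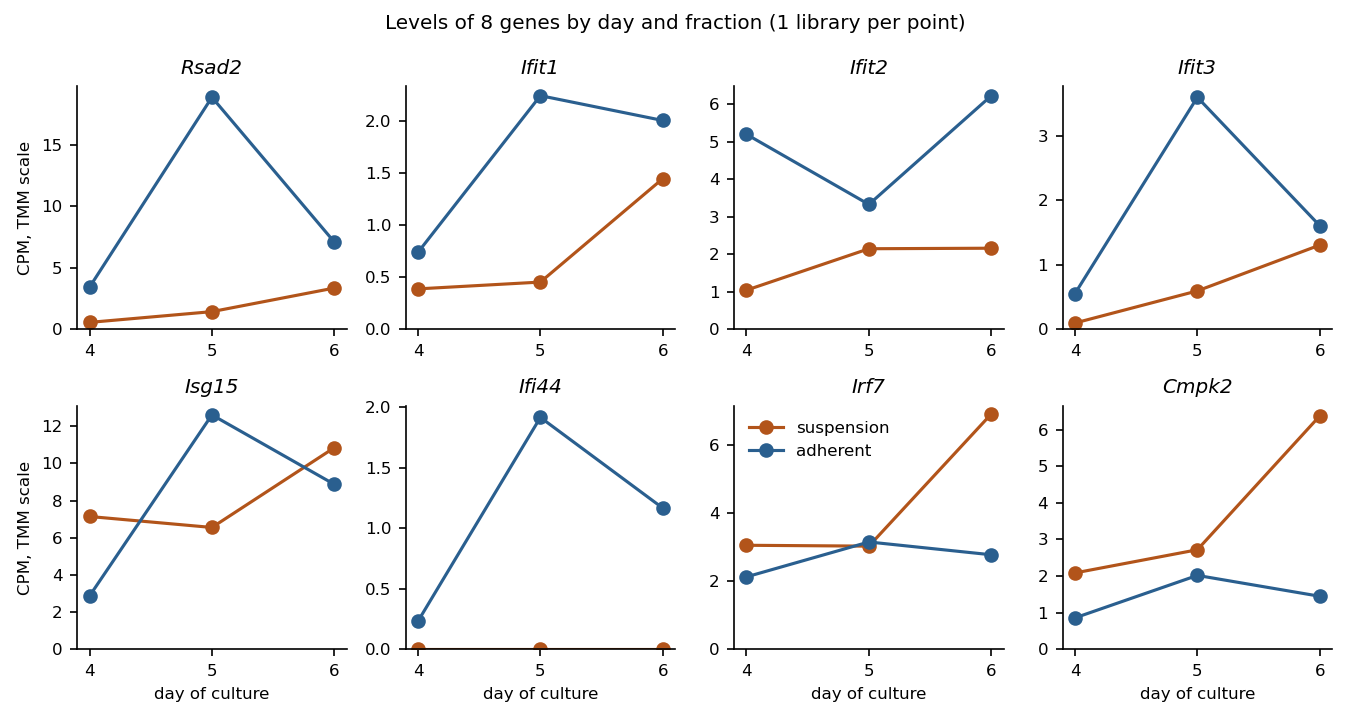
Levels in CPM (y axes, linear from 0) of 8 members on days 4, 5 and 6, with 1 point per library and lines joining a fraction; the 8 were chosen after their values were seen. Rsad2, Ifit3, Ifi44, Isg15, Ifit1, Cmpk2 and Irf7 are highest on day 5 among adherent libraries, and each suspension line except that of Ifi44, which stays at 0, is highest on day 6.

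Of the ubiquitin-like system, only Trim25 was called. Isg15 encodes the ubiquitin-like modifier itself. It had 7.14, 6.55 and 10.9 CPM in suspension and 2.86, 12.6 and 8.88 CPM in adherent. The adherent values lay on both sides of the suspension values, and the log2 ratio was 0.01 ± 0.52 (edgeR adjusted p of 0.986). Usp18, which removes ISG15 and dampens receptor signalling, stood at 0.993 to 1.71 CPM in the 6 libraries (edgeR adjusted p of 0.271). Trim25, a ubiquitin ligase that acts with RIG-I, had 43.7, 53.0 and 56.4 CPM against 20.3, 24.8 and 27.0 CPM. Both fractions were higher on each later day, the ratio was 2.15, 2.13 and 2.09 on days 4, 5 and 6, and the log2 ratio was 1.09 ± 0.15 (edgeR adjusted p of 0.00185).

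Among the GTPases, Igtp, which encodes IRGM3 and acts on vacuoles that hold pathogens, had 6.37, 6.15 and 6.46 CPM in suspension. Its adherent values were 1.29, 2.64 and 3.35 CPM, with a log2 ratio of 1.38 ± 0.35 and an edgeR adjusted p of 0.0155. Irgm1, a regulator of the same family, had 9.27, 11.6 and 12.1 CPM against 11.2, 10.8 and 7.48 CPM and was not called (edgeR adjusted p of 0.512). Its fractions crossed between days 4 and 5. Gbp2, a guanylate-binding protein gene, had 5.62, 6.36 and 6.53 CPM against 4.89, 8.39 and 7.97 CPM (edgeR adjusted p of 0.504). Gbp3 stood at 4.36 to 4.81 CPM in suspension and 1.13 to 3.63 CPM in adherent without overlap, yet with an edgeR adjusted p of 0.137. Mx1, a GTPase that blocks viral replication, had 41 counts over the 6 libraries, 3 to 9 in each, and did not pass the filter on low counts.

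Of the other effectors, Zbp1, Parp14 and Bst2 were higher in suspension. Zbp1 encodes a sensor of Z-form nucleic acid that can start necroptosis. It had 12.7, 15.0 and 15.4 CPM in suspension and 2.33, 2.67 and 4.89 CPM in adherent, with a log2 ratio of 2.12 ± 0.31 and an edgeR adjusted p of 0.00196. Parp14, an ADP-ribosyltransferase, had 16.4, 26.2 and 27.9 CPM against 7.84, 9.55 and 11.4 CPM (log2 ratio 1.29 ± 0.24, edgeR adjusted p of 0.00508). Bst2 encodes tetherin, which holds budding virus at the cell surface. It had 179, 162 and 195 CPM against 104, 136 and 149 CPM, with a log2 ratio of 0.46 ± 0.16 and an edgeR adjusted p of 0.0431. The fractions of Bst2 did not overlap, but its call was lost with 5 of the 6 libraries left out in turn, at adjusted p between 0.0561 and 0.112, and at 0.0994 among genes with at least 10 CPM in 3 libraries. Cmpk2, a mitochondrial nucleotide kinase gene beside Rsad2 on chromosome 12, had 2.08, 2.72 and 6.38 CPM in suspension and 0.854, 2.01 and 1.44 CPM in adherent. It thus ran higher in suspension on each day, opposite to its neighbour, with a log2 ratio of 1.38 ± 0.53 that was not called (edgeR adjusted p of 0.0639, and 0.0286 by DESeq2). Without suspension day 6 the log2 ratio of Cmpk2 was 0.72 (edgeR adjusted p of 0.200), and without suspension day 4 it was 1.62 (0.0430).

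Ifi35, an interferon-induced leucine zipper protein gene, was the steadiest of the called members. It had 26.8, 26.6 and 27.8 CPM in suspension and 18.9, 19.9 and 20.6 CPM in adherent, a log2 ratio of 0.45 ± 0.09 with an edgeR adjusted p of 0.00614. Xaf1, which promotes apoptosis, had 4.12, 3.38 and 5.68 CPM against 3.67, 6.25 and 7.17 CPM (edgeR adjusted p of 0.354). Rtp4 stood at 1.62 to 3.27 CPM in the 6 libraries without a call (edgeR adjusted p of 0.774).

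**Figure D4:**
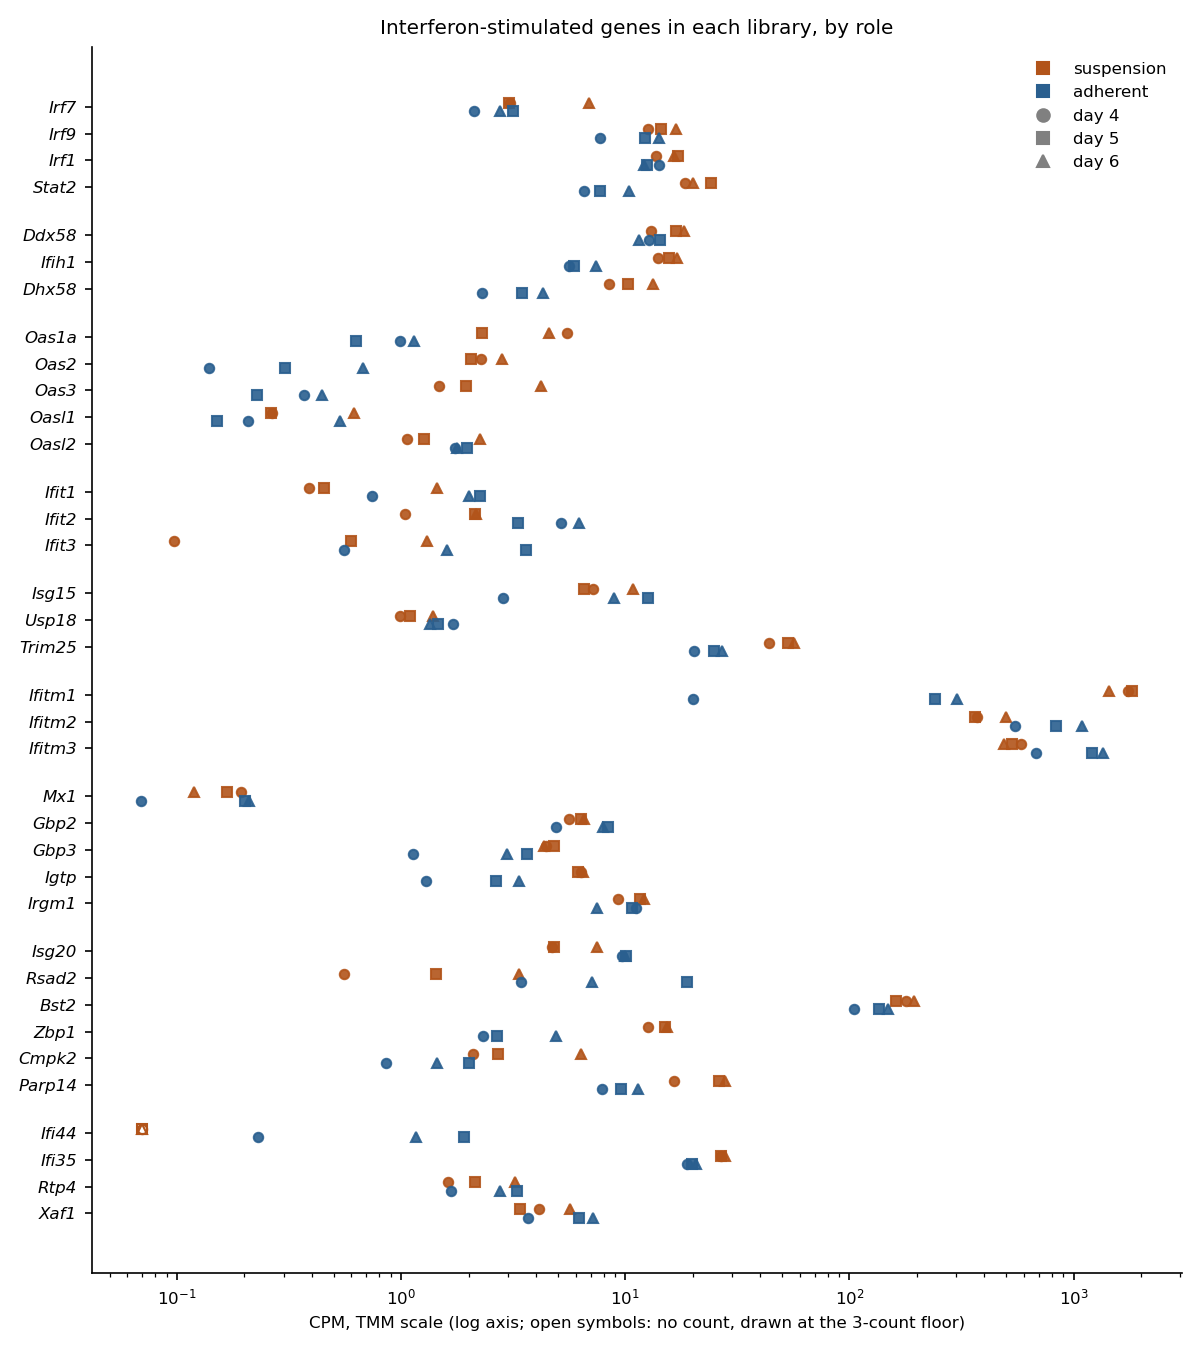
Level of each of the 36 members in each library, in CPM on a log axis, with members grouped by role, 1 point per library, a symbol for each day and open symbols at the 3-count floor for Ifi44, which had no count in suspension. Suspension points lie right of adherent ones for Stat2, Ifih1, Dhx58, Oas1a, Oas2, Oas3 and Zbp1, and left of them for Rsad2, Ifit2, Isg20, Ifitm2 and Ifitm3.

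Across the days of culture, most members had a slope above 0 that the test did not call. The slope common to both fractions was above 0 for 33 of 35 members, against 55.1% of all genes, and its median was 0.31 per day on the log2 scale, against 0.02 over all genes. By edgeR 0 members were called (0.0134% of all genes were), 10 had an unadjusted p under 0.05, all with a slope above 0, against 20.4% of all genes in either direction, and DESeq2 called 5. Those 5 were Ifitm2, Irf9, Trim25, Dhx58 and Parp14. The share of all genes that DESeq2 called is not reported here, and the edgeR share is no background for them. In suspension alone, 28 of 35 members were highest on day 6, against 36% of all genes, and 19 were higher on each later day, against 24.1%. No member passed the edgeR test of the suspension slope (0.496% of all genes did), and 9 had an unadjusted p under 0.05, all with a slope above 0, against 16.5% of all genes in either direction. Among all members in suspension, Rsad2 had the steepest course after Ifit3, with 6.01 times its day 4 level on day 6. Ifit3 reached 13.5 times from 0.0969 CPM, which is 4 counts. Neither gene is among those 9, with unadjusted edgeR p of 0.0865 for Rsad2 and 0.0595 for Ifit3. The neutrophil marker sum of suspension was highest on day 6 too.

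In the adherent fraction 19 members were highest on day 6, against 43.2% of all genes, and 13 on day 5, against 25.5%. The slope was above 0 for 31 of 35, against 57.1% of all genes, and 15 were higher on each later day, against 33.5% of all genes. The day 5 peak was largest for Ifi44 at 8.30 times, Ifit3 at 6.50 times, Rsad2 at 5.52 times and Isg15 at 4.41 times the level of day 4. These genes were singled out after their values were seen, and the peak has 1 library behind it. The endothelial and fibroblast marker sums were highest in the same library, and the adherent epithelial sum was lowest there. The part of these cell types in the values was not tested. Of the slope difference between fractions, 0 members were called by edgeR, where 0.516% of all genes were. An unadjusted p under 0.05 was reached by 5, against 19.6% of all genes. DESeq2 called 1, Ifitm3, and its share over all genes is not reported here.

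The interferon genes themselves were almost unread. Of 21 listed interferon genes, 17 had no count in any library, among them Ifnb1, Ifng, Ifnl2, Ifnl3 and all 13 Ifna genes of the list. A count of 0 allows up to 0.0594 to 0.0756 CPM in a library. All 21 together had 28 counts. Ifnz supplied 5, 7 and 8 of these on days 4, 5 and 6 of adherent and 1 in suspension.

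Of 6 receptor chains 4 were higher in suspension and 0 lower, 66.67% called against 56.8% of all genes (27.1% higher, 29.7% lower), with a median log2 ratio of 0.81, against -0.002473 over all genes. Ifngr1, the ligand-binding chain for type II interferon, had 132, 169 and 171 CPM in suspension and 59.6, 78.7 and 88.5 CPM in adherent (log2 ratio 1.06, edgeR adjusted p of 0.00354). Il10rb, a chain shared by type III interferon and IL10 receptors, had a log2 ratio of 1.06, and Ifngr2, the signalling chain for type II interferon, 0.56. Ifnlr1, the chain particular to type III interferon, had a log2 ratio of 2.09 at 0.0699 to 1.64 CPM, with an edgeR adjusted p of 0.0367 that became 0.0619 with the day as a block. The type I chains were not called. Ifnar1 had 31.9, 33.2 and 38.3 CPM against 36.4, 51.1 and 51.3 CPM (edgeR adjusted p of 0.0640, and 0.0386, lower in suspension, with the day as a block).

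Among 15 signal transducers and regulators, 6 were higher and 2 lower in suspension, with a median log2 ratio of 0.55. The share called, 53.33%, lies near the 56.8% of all genes. Ptpn6, a phosphatase of blood cells, had a log2 ratio of 2.86, Irf8, a factor of myeloid cells, 1.47, and Stat6, which carries IL4 signals, 0.89. The 2 lower genes were Jak2, a kinase used by the type II receptor, at 21.4 to 24.2 CPM against 58.9 to 87.0 CPM, and Socs1, a feedback inhibitor, at 3.68 to 5.62 CPM against 11.5 to 16.04 CPM. The block on day added Irf2 (edgeR adjusted p of 0.0530 without it and 0.00432 with it) and Pias1 (0.0665 and 0.0282) to the genes called.

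Of 14 tested genes that sense nucleic acid or relay that signal, 10 were higher in suspension and 0 lower, 71.43% called against 56.8% of all genes (27.1% higher), with a median log2 ratio of 0.95. Samhd1, which depletes nucleotides, had 94.0, 123 and 154 CPM against 32.9, 29.8 and 45.5 CPM. Tbk1, the kinase that activates IRF3, had a log2 ratio of 0.93, and Eif2ak2, the kinase PKR that halts translation, 0.63. Tmem173, which encodes STING, was not called, at 24.9 to 29.6 CPM against 28.3 to 45.7 CPM (edgeR adjusted p of 0.0503, and 0.0354, lower in suspension, with the day as a block).

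Of 40 tested further interferon-stimulated genes, 29 were higher in suspension and 2 lower, 77.5% called against 56.8% of all genes (27.1% higher, 29.7% lower), with a median log2 ratio of 1.35. Ifitm6, a blood-cell relative of the IFITM genes above, had 201, 238 and 579 CPM in suspension and 2.08, 7.96 and 13.3 CPM in adherent. Slfn2 had 420, 479 and 594 CPM against 40.1, 77.2 and 144 CPM, and Ly6e and Shisa5 had log2 ratios of 0.81 and 0.61. The 2 lower genes were GTPase genes. Iigp1, which attacks pathogen vacuoles, had 1.09, 0.977 and 0.634 CPM in suspension and 25.5, 58.1 and 70.4 CPM in adherent, a mean 57.0 times higher in adherent. Gbp4 stood at 0.0594 to 0.191 CPM in suspension and 0.512 to 1.96 CPM in adherent. With the day as a block Ly6a (0.0946 without it, 0.0171 with it) and Phf11b (0.122 and 0.0136) were added.

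All 11 genes of class I antigen presentation and its type II interferon control were higher in suspension, where 27.1% of all genes were, with a median log2 ratio of 1.51. H2-D1 had 888, 845 and 977 CPM against 187, 262 and 364 CPM, and H2-K1 had 401, 398 and 396 CPM against 105, 135 and 181 CPM. B2m, the light chain of class I molecules, had 645, 573 and 823 CPM against 267, 330 and 474 CPM, and Psmb8, an immunoproteasome subunit, 182, 184 and 177 CPM against 31.0, 48.7 and 84.0 CPM. Ciita, the class II activator, had an edgeR adjusted p of 0.0320 that became 0.0601 with the block. Of the macrophage markers 6 of 8, and of the neutrophil markers 8 of 8, were higher in suspension as well, and their part in these list counts was not tested.

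**Figure D5:**
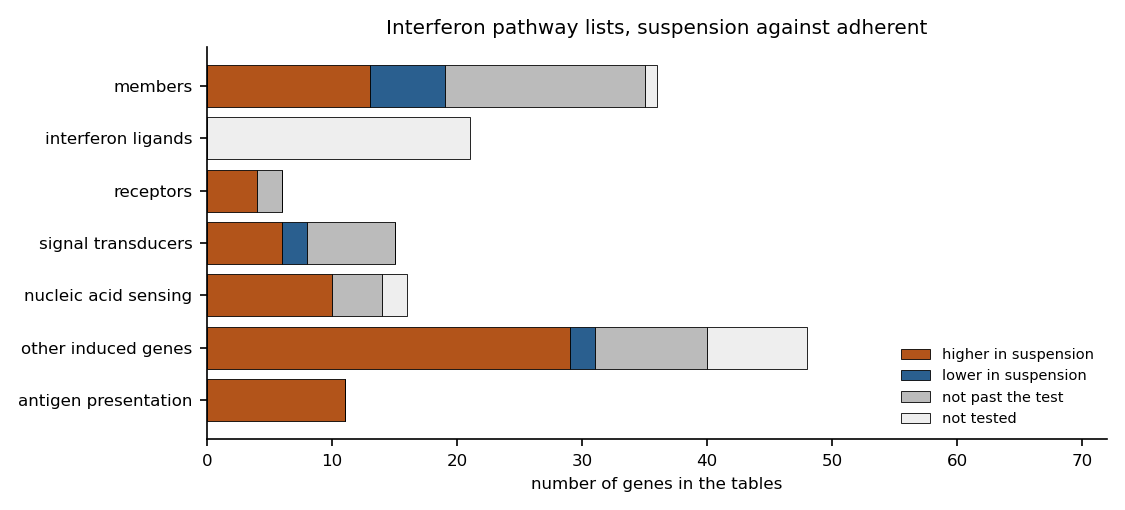
Number of genes of each list that were higher in suspension, lower, not called or not tested, as stacked bars. The antigen presentation list is higher for 11 of 11 genes and the further interferon-stimulated genes for 29 of 40, beside 13 of 35 for the members.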

How the data were processed

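The 6 libraries were made with the 10x 3' v3 kit, which captures single cells in droplets and sequences transcript ends. The deposited values are read counts per gene summed over each library, with no cell axis and no correction for molecular identifiers. Per the submitters' processing notes, the authors used bcl2fastq, Cell Ranger and STARsolo on mm10. Tool versions and the annotation release were not given in the sources used here. Sense-strand counts were analysed, whose total exceeded the deposited counts of the opposite strand in every library. The 4 summary lines stayed out of library sizes. Symbols and gene coordinates came from GENCODE M21, which held 31011 of 31053 identifiers.

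Counts were tested with edgeR 4.0.16 (limma 3.58.1, R 4.3.3) by the quasi-likelihood F test after TMM scaling and filterByExpr, which left 14912 genes. Adjustment was by Benjamini-Hochberg over all of them, with a threshold of 0.05. The fraction contrast had 4 residual degrees of freedom, the common slope 3 and the slope difference 2. The slopes within each fraction, from the fit of the slope difference, were added after seeing the data. Standard errors are the size of the log2 value over the square root of F. Alternatives were DESeq2 1.42.0, its size factors, either-strand counts, other filters, a block on day and each library left out. Per the labels a day is shared by both fractions. As a check, each library's deviation from its fraction was correlated across genes with that of the other fraction. The values within a day were 0.318, 0.095 and 0.253, those across days lay from -0.285 to 0.022, and genes are no independent replicates. Because deviations sum to 0 over the 3 libraries of a fraction, values above 0 within a day pull those across days below 0. The contrast is thus partly fixed in advance and does not settle whether days pair.

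The members and lists were chosen with earlier results of these data known. By rule, members with a mean of at least 5 CPM in a fraction were given per library, as were up to 4 called genes of each list with the highest CPM. Members below 5 CPM, and Iigp1, Gbp4, Socs1, Tmem173, Ifnar1, Ciita and the genes added by the block, were named after their values were seen. Some genes of the lists are counted but not reported here by name. The order of levels by day was also examined after the data were seen. Promoters came from RefSeq, whose table held 29 members.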

Additional observations from a re-analysis of the deposited data

How the results depend on the processing

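With the day as a replicate block, 13 members were higher and 6 lower in suspension, as without it, and no call of a member changed. Of the 19 called members, 13 kept their call under every alternative that tested them. Of all values for members in the fraction contrast, 372 kept direction and side of the threshold, 17 lost the call, 3 gained it and 8 reversed. Requiring 10 CPM or more in 3 libraries left 15 members, of which 7 were higher and 3 lower. With 1 library left out in turn, 11 to 13 members were higher and 2 to 7 lower, with 3 lower without suspension day 5 and 2 without adherent day 5. DESeq2, run on all 6 libraries only, called 5 members for the common slope, 6 for the adherent slope and 1 as less steep in suspension. The fits with 1 library left out used edgeR, which called 0 members for the common slope with or without all libraries. Whether the 5 DESeq2 calls hold with a library left out was not tested. The shares of all genes called under DESeq2 and the other alternatives are not reported here. Without a filter 7 rose in adherent and 2 were less steep in suspension. With 1 library left out, 0 to 9 rose and 0 to 1 fell in adherent, 0 to 1 rose in suspension, 0 to 2 were less steep and 0 to 1 steeper in suspension. The 9 rose without adherent day 5, which leaves 2 adherent libraries, and the cause was not tested. The reversed values were all of uncalled genes. The log2 ratio of Isg15 was -0.00416 with either strand, -0.00268 with size factors and -0.00369 with DESeq2. With 1 library left out it ran from -0.39 (without adherent day 4) to 0.48, that of Oasl1 from -0.19 (without suspension day 6) to 1.09, and that of Rtp4 from -0.46 to 0.076 (without adherent day 5). The suspension slope of Irf7 ran from -0.0103 (without suspension day 6) to 1.15. The cause was not tested. Depth limits Mx1, Oasl1, Ifi44, Ifit1 and Ifit3, with 41 to 331 counts over 6 libraries. It also limits Oas2 and Oas3 in adherent, with 6 to 29 counts per library.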
